A study of Homo sapiens with 1 sample.

Results

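The G2/M forebrain progenitors were the cells of the hHAR123 library in which mitotic messages were most abundant. They were chosen by expression, as the 12% of quality-filtered cells with the highest summed level of 7 mitotic genes, PIF1, ASPM, TOP2A, CENPE, PLK1, HMMR and GAS2L3, counted as unique molecular identifiers (UMIs) per 10000 UMIs of the cell. This rule gave 1469 of 12239 kept cells, out of 14726 cell barcodes, and the other 10770 kept cells were the comparison. The library was made from H9, an established human embryonic stem cell (ESC) line, of genotype WT, so that both copies of HAR123, a human accelerated region in an intron of SMG6, were the human form. The cells had been driven toward neural progenitor cells (NPCs), first for 2 days in a monolayer under SB431542 (10 μM), dorsomorphin (1 μM) and a ROCK inhibitor (5 μM), then for 5 days in rotating suspension without the ROCK inhibitor, and then for 7 days replated on Matrigel. Independent WT clones had been pooled into the library by the study, and collection preceded the picking of rosettes. With 1 library there was no replicate, so no test was run, every comparison is between cells of the same library, and all intervals (95%) cover counting error only.

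Dividing neural progenitors line the ventricle of the embryonic brain, and they pass through G2 and mitosis with messages for cyclins, spindle motors and kinetochore proteins at their peak. Many of these messages accumulate during G2 and are removed when the cell divides, so a cell rich in them is close to mitosis or in it. Their genes are repressed in quiescent cells and early in the cycle by the DREAM complex and activated late by the MuvB complex with B-MYB and FOXM1, both of which bind a short promoter element called the CHR.

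The count table listed 33538 genes and 327640709 UMIs, with 502 to 204741 UMIs per barcode (median 17494). A barcode was kept with 2000 to 10000 detected genes, a mitochondrial share of its UMIs from 1% to below 10%, and fewer than 5 UMIs per 10000 of ANXA1, TFPI2 and CTGF together. The last limit took out 1497 barcodes rich in these genes. With a single barcode suffix in the table, neither clones nor loading wells can be told apart.

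The 7 rule genes are described here only to show what chose the cells. The rule score was 28.9 UMIs per 10000 in the median G2/M cell and 1.81 in the median other cell, and 2369 other cells (22.0%) had no UMI of any rule gene. The score ran without a gap through the limit. The lowest G2/M cell stood at 19.4566 and the highest cell outside at 19.4553, and 185 G2/M cells and 170 other cells lay within 10% of the limit. The G2/M cells are thus defined as a range of this score, which says nothing of whether they form a separate type.

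**Figure D1:**
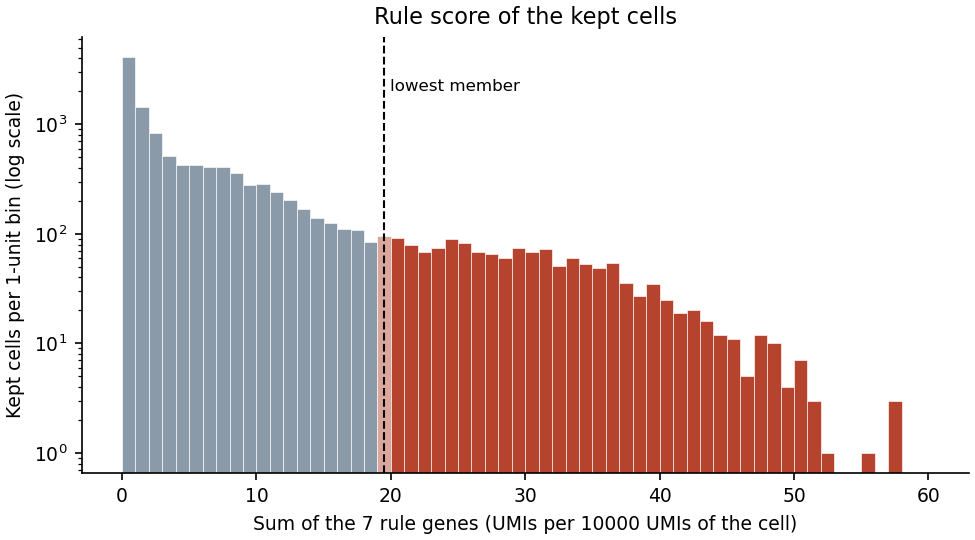
Histogram of the rule score, the summed UMIs of the 7 rule genes per 10000 UMIs, in the 12239 kept cells, with a log scale for the number of cells in each bin of width 1. Red bars are G2/M cells, grey bars other kept cells, and the pale bar at the dashed line holds both. The count of cells drops from 4156 in the first bin to 84 at a score of 18, stays between 60 and 95 up to a score of 31, and has no trough at the limit of 19.4566.

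The G2/M cells had more UMIs than the other kept cells. Their median was 24797 UMIs and 6623 detected genes, against 16199 UMIs and 5285 genes in the other cells, a ratio of 1.53 for UMIs. The 1497 barcodes left out for ANXA1, TFPI2 and CTGF had a median of 48483 UMIs. Of the G2/M cells, 73 (4.97%) were among the 8% of barcodes with the highest doublet scores, against 8.24% of the other cells. The median mitochondrial share was 4.91% in G2/M cells and 5.22% in the others, and the share of ribosomal protein genes was 13.3% against 15.8%. When each cell was given a cell cycle phase from lists that left out the rule genes, 1467 of the 1469 G2/M cells (99.9%, 99.5 to 100%) were called G2M, against 22.4% of the others (21.7 to 23.2%). The call was shared by the cells nearest in score. It was given to 84.3% of the 12% of kept cells with the next highest scores, and to 1.26% of the 52% with the lowest scores. The genes of those lists are not independent of the rule, so the calls describe the choice of cells. The part of free RNA in these calls was not tested.

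To hold depth equal, every cell was thinned at random to 5000 UMIs, which left 1468 G2/M cells and 10757 other cells. A level is the pooled thinned UMIs of a gene per 1000000 (CPM), a ratio is the level in G2/M cells over that in the other cells, and genes with at least 10 CPM over all kept cells were compared. Of 10031 such genes, with the rule genes left out here and in every later count, 151 (1.51%) were at least 2-fold higher and 47 (0.469%) at least 2-fold lower in G2/M cells, with a median ratio of 1.01 over all genes. Genes that travel with the rule genes are not independent of the rule, so these counts describe the cells and support nothing more. Of the 151 higher genes, 57 were at least 4-fold higher and 5 were under 10 CPM in the other cells. Of the 47 lower genes, 25 were under 10 CPM in the G2/M cells. These levels are shares of a cell's RNA. Counted as UMIs per cell, without scaling for depth, the median gene was 1.45-fold higher in G2/M cells (0.54 on the log2 scale), and the size of the shift differed between genes. On that scale 395 genes were at least 2-fold higher and 3 at least 2-fold lower, CCNE1, CCNE2 and WDR76.

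The gene with the highest ratio was APOLD1, an apolipoprotein L domain gene known from endothelial cells (ENSG00000178878, chr12:12725917-12829975, GRCh38). It was at 199 CPM in G2/M cells and 20.7 CPM in the others, a ratio of 9.59 (8.87 to 10.4). Its level followed the score within the G2/M cells, from 290 CPM in the upper score tertile of the G2/M cells to 189 and 119 CPM in the middle and lower tertiles. The 12% of cells with the next highest scores had 63.1 CPM, and the remaining 52% of cells with the lowest scores had 9.06 CPM. After it came UBE2C, the ubiquitin-conjugating enzyme that serves the anaphase-promoting complex (ENSG00000175063, chr20:45812576-45816957), at 579 against 64.1 CPM (9.04-fold, 8.64 to 9.45). AURKA, the kinase that matures centrosomes, followed at 183 against 20.7 CPM (8.84-fold, 8.16 to 9.58). KIF20A, a kinesin of the central spindle, was at 48.2 against 6.28 CPM (7.67-fold). It was under 10 CPM in the other cells, so it was compared only because of its level in G2/M cells. CDCA3, a trigger of WEE1 degradation, was 7.65-fold higher. The other genes of the 15 highest were DEPDC1, CKAP2L, CENPA, FAM83D, NEK2, TTK, SGO2, KIF14, CDCA2 and CDCA8, with ratios from 7.08 down to 5.81. All 15 but APOLD1 and FAM83D belong to a cell cycle list used here, and FAM83D, which was 6.80-fold higher, encodes a spindle protein.

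Genes that start mitosis were among the most raised groups. Of 18 measured kinases, cyclins and their regulators, 14 were at least 2-fold higher and none 2-fold lower, with a median ratio of 4.17 against 1.01 for all genes. CDK1, the kinase that drives entry into mitosis, was at 230 CPM in G2/M cells and 46.1 CPM in the others (4.99-fold, 4.69 to 5.31). Its cyclins were higher too, with CCNB1 at 5.03-fold, CCNA2 at 4.74-fold and CCNB2 at 3.79-fold. CDC25C, a phosphatase that activates CDK1, was 4.48-fold higher, whereas WEE1, which inhibits CDK1, was 1.58-fold higher. Levels of CDC25A (0.845, 0.712 to 0.999) and of MYBL2, which encodes B-MYB (0.951, 0.834 to 1.08), were below those of the other cells or overlapped them. Both were above 1 when UMIs per cell were compared. FOXM1, the transcription factor of late cycle genes, was 2.75-fold higher, but did not pass 2-fold against cells matched on UMI count. Against the 12% of cells with the next highest scores it was at 1.21 (1.08 to 1.35), where CDK1 was at 2.08.

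The spindle checkpoint and the machinery of chromosome segregation were higher too, but not as a block. Of 13 checkpoint and anaphase-promoting complex genes, 9 were at least 2-fold higher (median 2.94). TTK, the kinase at the top of the checkpoint, was 6.41-fold and CDC20, the activator that the checkpoint restrains, 5.51-fold higher. BUB3 (2.94-fold) and MAD2L1 (2.29-fold), of the checkpoint complex, passed 2-fold, MAD2L1 not against depth-matched cells (1.73), while the 4 genes that did not were CDC27 (1.92), FBXO5 (1.72), ANAPC11 (1.17) and MAD1L1 (1.14). All 22 kinesin and spindle genes were above the other cells and 20 passed 2-fold (median 4.08), the exceptions being NUMA1 and KIF5B, each at 1.47-fold. KIF15 and KIF22 no longer passed against depth-matched cells. TPX2, which activates AURKA on the spindle, was at 741 against 141 CPM (5.27-fold, 5.09 to 5.46). DLGAP5, a microtubule-stabilizing protein, was 5.79-fold higher.

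At the centromere, 17 of 23 genes were at least 2-fold higher (median 3.05). CENPF, a late kinetochore protein, had 1935 CPM in G2/M cells and 422 CPM in the others (4.58-fold, 4.48 to 4.68), and SGO2, which protects cohesion, was 6.36-fold higher. CENPA, the histone of centromeres, was 6.87-fold higher, and so were its chaperone HJURP (4.78-fold) and the outer kinetochore genes NDC80 (4.87-fold) and NUF2 (4.44-fold). Subunits of the constitutive inner centromere were spread widely, with CENPI at 3.16-fold, CENPW at 2.06-fold and CENPN at 1.91-fold, but CENPM at 1.34-fold, CENPK at 1.25-fold and CENPU at 1.23-fold. Against depth-matched cells CENPI, CENPW, SKA1, SKA3 and SPC25 no longer passed 2-fold. CENPW also did not without thinning, at 10000 UMIs, with 8% of cells or without the ANXA1, TFPI2 and CTGF filter. CENPL (2.54-fold) and CENPC (2.21-fold), of the same group but in no list and named after their values were seen, passed 2-fold as well. The highest level of CENPU was not in G2/M cells (104 CPM) but in cells of intermediate score, where it reached 134 CPM. Centromere genes thus ranged from 1.23-fold to 6.87-fold.

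Chromosome structure genes covered a wide range of ratios. Of 14 condensin, cohesin and chromatid genes, 5 were at least 2-fold higher (median 1.81): MKI67 (4.96-fold), which coats mitotic chromosomes, and the condensin genes NCAPH (3.66-fold), NCAPG (3.61-fold), NCAPD2 (2.96-fold) and SMC4 (2.69-fold). SMC2, the partner of SMC4, was at 1.87-fold. The subunits particular to condensin II were lower, with NCAPG2 at 1.75-fold, NCAPD3 at 1.24-fold and NCAPH2 at 0.976. Cohesin genes ranged from 0.964 for STAG2 to 1.91-fold for RAD21. In the list headed cytokinesis, 9 of 12 genes were at least 2-fold higher (median 3.87), among them CEP55 (5.49-fold), which recruits the abscission machinery, and RACGAP1 (4.89-fold), of the central spindle. Its highest ratios were those of CDCA3 (7.65-fold), DEPDC1 (7.08-fold) and CDCA2 (5.84-fold), which are division genes not particular to cytokinesis. The count and median of this list thus do not describe cytokinesis alone. RHOA and SEPT7, which are not confined to cytokinesis, were at 1.03 and 1.13. AURKAIP1, whose place in this list is uncertain, was at 1.05. Centrosome and centriole genes, several of which are microcephaly genes as ASPM is, were above the other cells in 12 of 12 cases (median 1.70). Past 2-fold were 2 of the 12, PLK4 (2.22-fold) and STIL (2.24-fold), where 1.51% of all genes compared were. The 6 lists from mitotic entry to cytokinesis together held 74 of the 151 higher genes, from 102 measured, and their summed level was 21707 against 7660 CPM (2.83-fold, 2.82 to 2.85). When each G2/M cell was set against an other cell of nearly the same UMI count, in place of thinning, that ratio was 2.10. Of the 107 named genes past 2-fold, 19 no longer passed it. They were FOXM1, CKS1B, UBE2S, MAD2L1, KIF15, KIF22, CENPI, CENPW, SKA1, SKA3, SPC25, SMC4, PLK4, STIL, STMN2, BTG2, DLL3, DDIT4 and JPT1. Of 50 G2/M genes of the list shipped with Seurat, outside the rule genes, 45 passed 2-fold. Most of these are also in the gene lists used here, and they too are not independent of the rule.

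**Figure D2:**
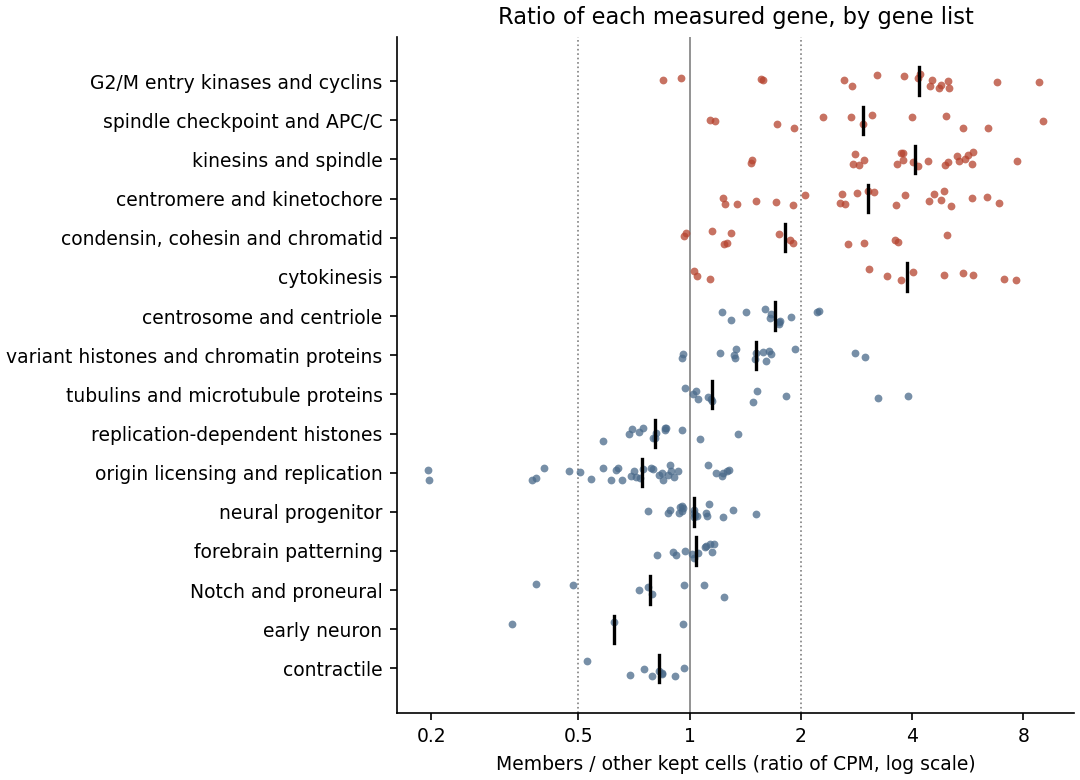
Each point is a gene with at least 10 CPM, placed on a log scale by the ratio of its level in G2/M cells to that in the other kept cells. Black bars are list medians, red points belong to the 6 mitotic lists, and dotted lines mark 2-fold. The mitotic lists have medians from 1.81 to 4.17, and the neural progenitor and forebrain lists sit at 1.03 and 1.04.

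Most chromatin and cytoskeleton genes outside these lists were above 1, and the counts past 2-fold are read against 1.51% of all genes compared. Of 15 genes for variant histones and chromatin proteins, 13 were above 1, with a median ratio of 1.51. HMGB2 (870 against 293 CPM, 2.97-fold) and H2AFX (2.81-fold), a DNA damage histone, passed 2-fold. H3F3A and H3F3B, the replacement histones, were at 0.962 and 0.954. Of 12 tubulins and microtubule proteins, 11 were above 1 (median 1.15). Past 2-fold were 2, TUBA1C (277 against 70.9 CPM, 3.91-fold) and TUBB4B (515 against 159 CPM, 3.24-fold). The abundant TUBA1A (1.04) and TUBB2B (1.06), which serve neurons, and MAP2 (0.970) stayed near 1. Alpha tubulin genes are near copies of each other, so reads may be shared between them and their separate values are uncertain.

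Promoters are shown because many of the higher genes hold the same short motifs near their start. RefSeq sequences (GRCh38.p14) from 250 bases before to 50 bases after a gene's start were searched on both strands for TTTGAA (the CHR), TTTAAA (a CHR variant), CCAAT (the CCAAT box, bound by NF-Y), and TTCCCGC and TTGGCGC (forms of the E2F site, which can overlap a CHR). A promoter was matched for 123 of the 151 higher genes, 34 of the 47 lower genes and 8167 of all 10031 genes compared. APOLD1 has a CHR match 177 bases before its start, and UBE2C and AURKA had no entry. The next lines give the 120 bases before the start, 5′ to 3′ on the strand of the gene, with matches to any of the 5 motifs in capitals (in reverse, the first motif reads TTCAAA, the CCAAT box ATTGG, and the E2F forms GCGGGAA and GCGCCAA). The genes shown are examples picked by no rule, and others of the same lists differ from them. NEK2, CCNA2 and BUB1, for example, have neither the CHR nor its variant in the searched bases. MCM2, FEN1 and GMNN have no E2F form there, and RRM1 has a CHR. First come 6 genes higher in G2/M cells and 1 rule gene, HMMR, and then 3 genes of the replication list.
KIF20A: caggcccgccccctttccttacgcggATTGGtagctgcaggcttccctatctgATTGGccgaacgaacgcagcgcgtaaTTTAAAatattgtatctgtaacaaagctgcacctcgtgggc
DEPDC1: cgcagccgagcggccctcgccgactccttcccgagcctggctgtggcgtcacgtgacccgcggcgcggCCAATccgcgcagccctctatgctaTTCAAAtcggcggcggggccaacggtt
CKAP2L: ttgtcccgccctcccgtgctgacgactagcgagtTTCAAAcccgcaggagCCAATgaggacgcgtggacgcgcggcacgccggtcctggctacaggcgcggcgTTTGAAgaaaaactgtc
CENPA: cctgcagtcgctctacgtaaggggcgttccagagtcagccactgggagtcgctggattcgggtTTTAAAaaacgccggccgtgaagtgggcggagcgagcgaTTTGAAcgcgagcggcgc
CCNB1: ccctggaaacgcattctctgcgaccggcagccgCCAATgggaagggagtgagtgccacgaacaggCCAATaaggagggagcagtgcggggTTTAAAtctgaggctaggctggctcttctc
CCNB2: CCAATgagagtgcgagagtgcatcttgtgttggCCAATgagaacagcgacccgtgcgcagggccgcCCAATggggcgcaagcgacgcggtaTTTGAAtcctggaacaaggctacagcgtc
HMMR: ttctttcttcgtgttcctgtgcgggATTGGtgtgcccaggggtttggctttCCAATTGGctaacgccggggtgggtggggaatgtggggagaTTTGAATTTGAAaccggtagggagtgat
MCM3: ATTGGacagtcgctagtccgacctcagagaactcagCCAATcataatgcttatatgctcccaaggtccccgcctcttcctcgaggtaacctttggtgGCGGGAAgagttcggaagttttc
MCM6: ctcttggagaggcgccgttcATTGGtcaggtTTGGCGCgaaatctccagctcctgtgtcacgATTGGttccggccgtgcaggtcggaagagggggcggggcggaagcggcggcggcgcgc
E2F1: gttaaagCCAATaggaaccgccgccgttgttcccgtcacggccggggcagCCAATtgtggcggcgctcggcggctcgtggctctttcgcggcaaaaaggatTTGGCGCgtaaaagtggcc
These stretches lie at chr5:138178992-138179111 (plus strand), chr1:68497083-68497202 (minus), chr2:112764610-112764729 (minus), chr2:26785936-26786055 (plus), chr5:69167030-69167149 (plus), chr15:59105026-59105145 (plus), chr5:163460512-163460631 (plus), chr6:52284743-52284862 (minus), chr2:135876444-135876563 (minus) and chr20:33686386-33686505 (minus).

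In CCNB2, 3 CCAAT boxes precede a CHR that begins 29 bases before the start, and CCNB1 has the TTTAAA variant at 30 bases after 2 CCAAT boxes. HMMR has 2 CHR matches in a row, at 28 and 22 bases. MCM3, MCM6 and E2F1 have CCAAT boxes as well, but no CHR, and each has an E2F form in the printed stretch. Over the whole 300 bases, TTTGAA was present in 72 of the 123 promoters of higher genes (58.5%), in 9.89% of the genes compared and in 15.4% of all 27305 promoters. The CCAAT box was in 69.9%, 37.9% and 35.7% of the same sets. It was also in 66.7% of the promoters of the replication list and 47.1% of those of lower genes, so it was not particular to the higher genes. Promoters with a CHR were more frequent among genes with ratios above 1.5. Their share was 8.82% for the 34 genes with ratios below 0.5, 7.80% for ratios from 0.5 to 1, 9.60% from 1 to 1.5, 30.6% from 1.5 to 2, 52.6% from 2 to 4 and 68.9% from 4 upward. In the replication list, 1 of 27 promoters (3.70%) held the CHR, whereas 48.1% held TTCCCGC and 33.3% TTGGCGC, against 10.9% and 5.24% of the genes compared. These are matches of letters, and no binding was measured in these cells.

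**Figure D3:**
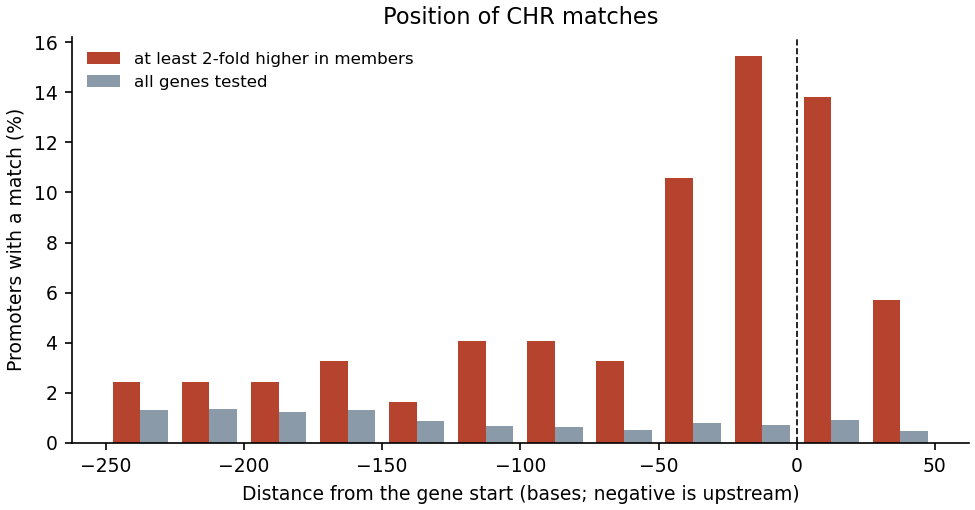
Share of promoters with a CHR match (%) that begins in each bin of 25 bases, against the distance from the gene start. Red bars are the 123 promoters of genes at least 2-fold higher in G2/M cells and grey bars the 8167 promoters of all genes compared. The red bars are highest in the 50 bases before the start (10.6% and 15.4%) and the first 25 after it (13.8%), where the grey bars stay below 1%.

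As shares of RNA, most genes of the G1/S transition and of replication were lower in G2/M cells, but few of them 2-fold. CCNE1, the cyclin that starts S phase (ENSG00000105173, chr19:29811991-29824312), had the lowest ratio, with 4.22 CPM in G2/M cells and 21.6 CPM in the others (0.196, 0.132 to 0.280). CCNE2 followed at 0.197 (0.116 to 0.314). None of the 34 replication genes was 2-fold higher and 6 were 2-fold lower (median 0.743): CCNE1, CCNE2, the loading factor CDC6 (0.374), and the helicase subunits MCM6 (0.384), MCM5 (0.403) and MCM4 (0.471). The other 3 helicase subunits were at 0.641 for MCM3, 0.693 for MCM2 and 0.890 for MCM7. In contrast, 6 of the 34 were above 1: ORC6 (1.28), GINS1 (1.27), RRM1 (1.23), GMNN (1.22), ORC1 (1.18) and RRM2 (1.12). GMNN, or geminin, blocks a second round of licensing in G2. CCND1 and CCND2, the cyclins of G1, were at 0.798 and 0.736. As UMIs per cell, 11 of the 34 genes changed side of 1, and CDC6 (0.538), MCM6 (0.586), MCM5 (0.623) and MCM4 (0.685) no longer passed 2-fold, which CCNE1 (0.385) and CCNE2 (0.325) still did. MCM4 also did not pass at 2500 UMIs, with 16% of cells or with the score from thinned counts.

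Replication-dependent histone genes did not simply follow replication. Their mRNAs mostly end without a poly(A) tail, so this poly(A)-primed assay sees only part of them, and as near-identical copies they may share reads. Of 26 listed, 14 were measured and none differed 2-fold, with a summed level of 647 CPM in G2/M cells and 740 CPM in the other cells (0.874, 0.848 to 0.901). The direction of this ratio was not stable. It was 0.564 against other cells of the same depth, 0.727 when the top 8% of cells were taken, 1.09 for the top 16%, 1.01 with the score taken from thinned counts and 1.06 as UMIs per cell.

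Along the score, histone messages had a peak outside the G2/M cells. The kept cells below the G2/M cells were divided into 3 bands of 12% each by score (bands 2, 3 and 4) and the remaining 52%. The summed histone level was 213 CPM in the remaining cells, 1102 CPM in band 4, 1847 CPM in band 3, 1557 CPM in band 2, next to the limit, and 647 CPM in G2/M cells. Within the G2/M cells it was 856, 595 and 490 CPM in the lower, middle and upper score tertile. HIST1H4C alone had 353 CPM in G2/M cells and 955 CPM in band 3. Replication genes peaked 1 band earlier in the ranking, at 3607 CPM in band 4, against 2199 CPM in G2/M cells and 2411 CPM in the remaining cells. The sum of the mitotic lists was higher at each step instead, with 4563, 9360, 12185 and 14853 CPM in the remaining cells and bands 4, 3 and 2, and 18820, 21588 and 24718 CPM in the tertiles of the G2/M cells. Of 106 mitotic genes, 71 were higher at each of these steps. The groups are ordered by the rule itself, so this order is a description.

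**Figure D4:**
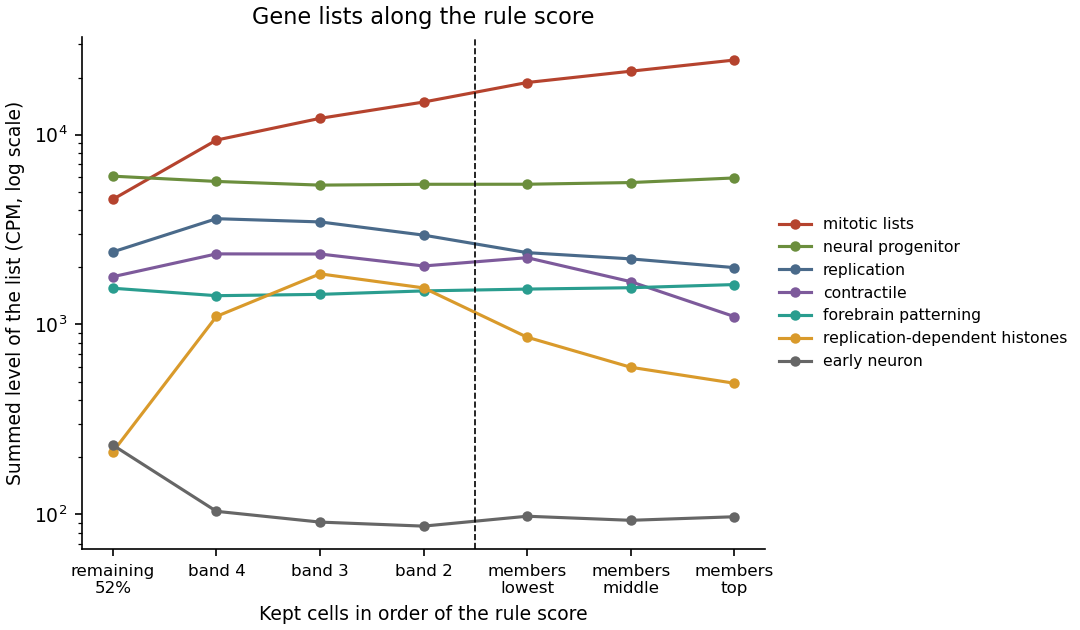
Summed level of 7 gene lists (CPM, log scale) in groups of kept cells ordered by the rule score, from the remaining 52% on the left through bands 4, 3 and 2 (12% each) to the 3 tertiles of the G2/M cells, right of the dashed line. The mitotic lists climb from 4563 to 24718 CPM, the histones peak at 1847 CPM in band 3, and the forebrain and neural progenitor lists stay nearly level.

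Against the cells closest in score the leading higher genes had smaller ratios, whereas histone genes differed more than against all other cells. Between G2/M cells and band 2, 19 of 6211 genes with at least 30 CPM (0.306%) were at least 2-fold higher and 10 (0.161%) at least 2-fold lower. APOLD1 (3.15-fold), AURKA (2.64-fold) and UBE2C (2.57-fold) led the higher genes. The lower genes were led by histones, such as HIST1H3G (0.312) and HIST1H1C (0.336). Against the 1394 cells outside that were among the 12% of kept cells richest in histone messages, 61 of 6158 genes (0.991%) were at least 2-fold higher and 45 (0.731%) at least 2-fold lower, with the histone genes that chose these cells included. There CDC20 (157 against 32.0 CPM, 4.92-fold), TUBA1C (4.69-fold), AURKA (4.34-fold) and CCNB2 (4.06-fold) came next after APOLD1 (5.66-fold). Only 75 G2/M cells (5.11%) were themselves among the 12% richest in histone messages.

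The G2/M cells were not uniform. They were divided into tertiles by the sum of 7 genes, UBE2C, CDC20, CCNB1, PTTG1, CDKN3, CKS2 and UBE2S, called late mitotic genes here. These genes were chosen after their values were seen. CCNB1, CDKN3 and CKS2 are also in the list of genes that start mitosis. When each message peaks within mitosis was not measured, so the tertiles are not a shown order in time. The 7 genes were themselves left out, and of the other 6147 genes between the high and the low tertile 1 (0.0163%) was at least 2-fold higher, TUBA1C, and 20 (0.325%) were at least 2-fold lower. TUBA1C was at 176, 276 and 378 CPM in the low, middle and high tertile. Histone messages ran the other way and more steeply, with 1093, 550 and 299 CPM for the list, 607, 312 and 141 CPM for HIST1H4C, and a high-to-low ratio of 0.137 (0.0888 to 0.204) for HIST1H1B.

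**Figure D5:**
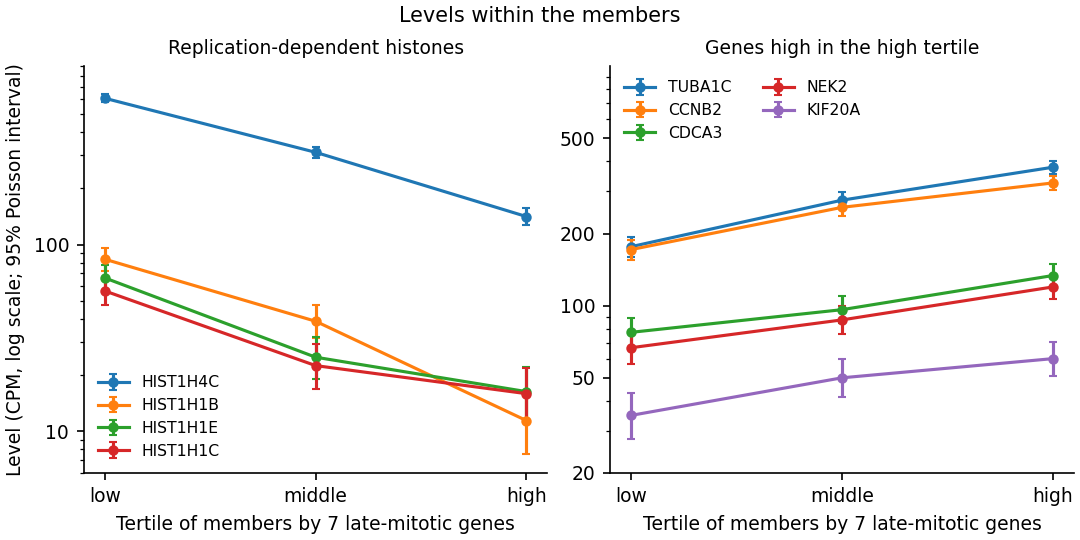
Levels (CPM, log scale) of single genes in the low, middle and high tertiles of the G2/M cells by the 7 genes called late mitotic here, with 95% Poisson intervals. On the left HIST1H4C, HIST1H1B, HIST1H1E and HIST1H1C step down from low to high. On the right TUBA1C, CCNB2, CDCA3, NEK2 and KIF20A step up, TUBA1C from 176 to 378 CPM.

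The other lower genes of that comparison, named after their values were seen, included genes with a long genomic span. FAM155A was at 305 CPM in the low tertile and 120 CPM in the high tertile (0.393, 0.342 to 0.451). SEMA3A, ESRRG, KCNH7, ERBB4 and KIRREL3, which act in axon guidance, signalling or excitability, were at 0.408 to 0.466. Outside the mitotic lists, the median high-to-low ratio was 1.14 for the quartile of genes with the shortest genomic span (up to 20.6 kb), 1.01 and 0.904 for the middle quartiles, and 0.809 for the longest (from 127 kb). No such order was seen between G2/M cells and the other kept cells, where the medians from short to long were 0.989, 1.02, 1.02 and 0.992. Cell Ranger 7.0.1 was run by the authors at its default settings, which count reads in introns, so the counts of long genes include unspliced RNA. The share of mitochondrial UMIs was 4.70% in the low tertile and 5.14% in the high tertile, and the median UMI counts were 25804 and 23410.5. The part of these in the order by span was not tested.

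The 7 genes called late mitotic here were not confined to the G2/M cells. The 1469 other cells with the highest sum of the same 7 genes were chosen by these genes, so their levels only describe the choice. PTTG1, which encodes securin, was at 491 CPM there and 475 CPM in G2/M cells, and UBE2S at 558 and 564 CPM. The other 5 were higher in G2/M cells, with ratios of 2.73 for UBE2C, 1.40 for CCNB1, 1.39 for CDKN3, 1.38 for CKS2 and 1.32 for CDC20. CDK1, which did not enter the choice, was at 78.9 CPM there and 230 CPM in G2/M cells. Between G2/M cells and these cells, 101 of 6148 genes (1.64%), the 7 late genes included, were at least 2-fold higher and 7 (0.114%) at least 2-fold lower. The lowest was TAGLN, a contractile gene, at 238 against 603 CPM (0.394), followed by IER3 (0.410), an immediate early gene named after its value was seen. Both groups were taken by their expression, so these values are a description.

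Neural progenitor and forebrain genes had levels near those of the other cells, and the counts past 2-fold in these lists are read against 1.51% higher and 0.469% lower of all genes. SOX2 was at 468 CPM in G2/M cells and 422 CPM in the others (1.11, 1.07 to 1.15), and of 19 neural progenitor genes none differed 2-fold (median 1.03). The largest ratio in that list was 1.51 for SOX3 and the smallest 0.771 for VIM, an intermediate filament gene, at 689 against 893 CPM. PAX6, a regulator of cortical progenitors, was at 70.3 against 53.5 CPM (1.31, 1.19 to 1.44). Of 12 measured forebrain patterning genes none differed 2-fold either (median 1.04), and their sum was 1572 against 1511 CPM (1.04, 1.02 to 1.06). SIX3, an anterior forebrain factor, was at 353 and 321 CPM, LHX2 at 194 and 166 CPM, and FEZF1 at 62.8 and 76.8 CPM. As UMIs per cell, 4 of the 12 forebrain genes and 8 of the 19 progenitor genes changed side of 1. Of 11 midbrain, hindbrain and spinal cord genes, 2 reached 10 CPM, FGF8 and PAX8, and 7 had no UMI in G2/M cells, where 3 counts would be 0.409 CPM. The G2/M cells thus carried forebrain and progenitor markers, as their label says, at levels near those of the other kept cells.

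Of 3 measured early neuron genes, 1 was at least 2-fold lower in G2/M cells, against 0.469% of all genes compared. STMN2, a microtubule regulator of young axons, was at 13.2 against 39.9 CPM (0.331, 0.267 to 0.406), but did not pass 2-fold against depth-matched cells or as UMIs per cell (0.554), and DCX, a migration gene, at 53.5 against 85.5 CPM (0.626, 0.563 to 0.694). GAP43, a growth cone gene, was at 14.3 against 14.9 CPM (0.957, 0.773 to 1.17). Against band 2, the cells of the next highest scores, the ratios were 1.20 for STMN2 (0.882 to 1.63), 1.11 for DCX and 1.13 for GAP43. The DCX level of the other cells was highest in the 52% with the lowest scores, at 109 CPM against 48.0 to 56.5 CPM in bands 2 to 4. Of 8 measured Notch and proneural genes 2 were at least 2-fold lower, against 0.469% of all genes compared, and 4 of the 8 changed side of 1 as UMIs per cell. BTG2, which slows the cycle of neurogenic progenitors, was at 8.17 against 21.3 CPM (0.384), and the Notch ligand DLL3 at 6.81 against 14.1 CPM (0.483). DLL3 did not pass 2-fold in most other settings, nor did BTG2 without thinning, at 10000 UMIs, against depth-matched cells or as UMIs per cell (0.735). NEUROG1, a proneural factor, had no UMI in G2/M cells against 1.82 CPM in the others. INSM1 and EOMES, of intermediate progenitors, were at 0.272 against 2.77 CPM and 0.272 against 2.36 CPM, all of them under the floor of 10 CPM. Notch receptors stayed near 1, with NOTCH1 at 0.967, NOTCH3 at 1.09 and NOTCH2 at 1.24.

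Genes of other cell types differed in how abundant they were. After thinning, the median G2/M cell and the median other cell both had 5 UMIs of 13 contractile genes, 0 of 12 early neuron genes, 0 of 8 crest and mesenchyme genes and 1 of 5 pluripotency genes. A contractile UMI was found in 98.98% of G2/M cells and 98.18% of other cells, and the contractile list summed to 1676 against 1973 CPM. Most of that sum in G2/M cells came from TPM1 (732 CPM) and CALD1 (470 CPM), whereas ACTA2 was at 27.0 and CNN1 at 8.72 CPM. A UMI of the list thus does not show a contractile cell. Of 10 endoderm, mesoderm and epithelium genes the medians were 0 and 1 UMIs, and 48.4% of G2/M cells and 54.4% of other cells had a UMI. A median of 0 cannot show a difference, and the summed level of the early neuron list was 95.8 against 175 CPM (0.548, 0.506 to 0.591). Of 9 measured contractile genes, 0 differed 2-fold and 9 were below 1 (median 0.826), but 8 of the 9 were above 1 as UMIs per cell. TAGLN was at 66.7 CPM in the upper score tertile of the G2/M cells, 234 CPM in the middle and 412 CPM in the lower tertile, a wider spread than between G2/M cells (238 CPM) and the others (316 CPM). The part of cells rich in contractile genes in this gradient was not tested. Genes around HAR123, from SMG6 (131 against 129 CPM) to YWHAE (612 against 645 CPM), had a median ratio of 1.00 over 8 measured genes, and 0 of the 8 passed 2-fold, where 1.51% of all genes were higher and 0.469% lower. The list holds 3 more genes, HIC1, DPH1 and SGSM2, all under the floor of 10 CPM. HIC1 was at 0.545 CPM in G2/M cells, too low to compare.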

How the data were processed

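Single-cell RNA-seq (10x 3' kit) of 1 hHAR123 library was analysed. The authors deposited raw counts, that is, UMIs per gene and barcode, with no normalization. Per the submitters' processing notes they were made with Cell Ranger 7.0.1 on GRCh38, and Seurat 4.4.0 was used downstream. The annotation version is not given in the sources used here. No group comparison between libraries was possible, and libraries of other genotypes were not analysed here. The members and gene lists were chosen with earlier results of these data known.

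Cells were filtered and ranked as stated above, and equal scores were ordered as the barcodes are in the table. Counts were thinned without replacement to 5000 UMIs (seed 1), which left out 1 G2/M cell and 13 other cells, and pooled as CPM. Ratios carry the exact conditional interval, levels a Poisson interval and shares a Clopper-Pearson interval. The interval code was tested on simulated data. Genes under 10 CPM over all thinned kept cells (30 CPM for comparisons with subsets) were left out. The named genes were the genes of the lists and, outside the 7 rule genes, the 15 highest and 15 lowest ratios. Scrublet (expected rate 8%) marked 1 of 14726 barcodes, so the caller failed here and all barcodes stayed in. Phases were called with scanpy 1.11.5 and the Seurat lists. Statistics used scipy 1.17.1 with numpy 2.4.6 under Python 3.11.15, tables pandas 2.3.3, cells anndata 0.12.19 and plots matplotlib 3.10.9. Gene spans came from GENCODE 44 and promoters from RefSeq, with the first listed start of each symbol. Alternatives were other depths of thinning, cells matched on UMIs, other shares of cells, another score, filters and minimum levels, and, added after seeing the data, UMIs per cell. The values of 1 gene of the forebrain list are not reported here.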

Additional observations from a re-analysis of the deposited data

Results flagged for a closer look

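Some barcodes that the quality filter had left out also reached the limit of the rule score, and they enter no comparison above. A rule score at or above the limit was reached by 63 of 520 barcodes with under 2000 genes (12.1%, 9.44 to 15.2%). It was reached by 16 of 189 with a mitochondrial share under 1% (8.47%), 19 of 187 with 10% or more (10.2%), 3 of 94 with over 10000 genes (3.19%) and 26 of 1497 with 5 or more ANXA1, TFPI2 and CTGF UMIs per 10000 (1.74%, 1.14 to 2.53%). The limit that a count of 0 allows was set at 3 barcodes, so any class with 3 or more meets it, as each class here does. It therefore cannot show that a share stands out. By the rule 12% of the kept cells reach the limit of the score. The 63 barcodes with under 2000 genes had a median of 1134 UMIs. At that depth a few UMIs reach the limit, no background share was measured for such barcodes, and the parts of low depth and free RNA were not tested. The barcodes left out for ANXA1, TFPI2 and CTGF had the lowest share, at a median depth of 48483 UMIs.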

How the results depend on the processing

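Of the 107 named genes past 2-fold, none changed direction under any setting tried, and up to 19 no longer passed 2-fold. No paired analysis was possible because there is 1 library. The count of genes at least 2-fold higher (151) and lower (47) became 61 and 5 with a minimum of 50 CPM, 1460 and 1395 with no minimum, and 395 and 3 as UMIs per cell. The lower count was 29 without thinning and 118 without the ANXA1, TFPI2 and CTGF filter, called the contractile filter below for short. The mitotic ratio of 2.83 was 2.53 without thinning, 2.78 at 10000 UMIs, 2.10 with depth-matched cells, 2.81 with 16% of cells, 2.75 with the score from thinned counts, 2.75 without the contractile filter, 2.90 without the highest Scrublet scores and 3.65 as UMIs per cell. The forebrain ratio of 1.04 was 1.08 with depth-matched cells, 1.11 without the contractile filter and 1.505 as UMIs per cell. The histone ratio of 0.874 was 0.736 without thinning, 0.908 at 2500 UMIs, 0.564 with depth-matched cells, 0.727 with 8% and 1.09 with 16% of cells, 0.904 with a score of 5 genes, 1.01 with the score from thinned counts, 0.934 without the contractile filter and 1.06 as UMIs per cell. The ratio of median UMIs (1.53) was 1.46 without the contractile filter. The score of 5 genes kept 1416 of the 1469 G2/M cells (96.4%) and the score from thinned counts 1250 (85.1%). Causes of these shifts were not tested. Counts of 0 and levels near 0.409 CPM in G2/M cells are at the depth limit.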

Other observations

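Outside all gene lists, 65 genes were at least 2-fold higher in G2/M cells, and those named here were chosen after their values were seen. Many have known mitotic roles: KPNA2, which imports spindle regulators, was at 595 against 135 CPM (4.41-fold, 4.25 to 4.58), KNSTRN, a kinetochore protein, was 4.91-fold, NDE1, a microcephaly gene that acts with dynein, 3.67-fold and GPSM2, which orients the spindle in dividing progenitors, 3.56-fold higher. Others are not known for mitosis: SLC7A11, the cystine transporter, was at 61.4 against 22.8 CPM (2.70-fold, 2.42 to 3.01), PDE4D, a cyclic AMP phosphodiesterase, at 64.7 against 25.8 CPM (2.51-fold) and GPC5, a glypican, at 27.8 against 8.31 CPM (3.34-fold). ARHGAP11A (4.83-fold) and AC091057.6 (4.51-fold) may share reads.

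Of the 47 lower genes, the first 5 named here are in no gene list and were chosen after their values were seen, so they are single values and not a count of neuronal genes. DCC, the netrin receptor of growing axons, was at 55.2 against 123 CPM (0.449, 0.405 to 0.497), and MDGA2 (0.433), GRM8 (0.450), CNTN5 (0.456) and KCNIP4 (0.453), of synapses and axons, were similar. IGFBP3 was at 16.5 against 43.1 CPM (0.382) and DDIT4, a stress-induced inhibitor of growth signalling, at 10.9 against 28.2 CPM (0.386). As UMIs per cell, none of these 7 genes passed 2-fold, with DDIT4 at 0.621 and IGFBP3 at 0.526. NEAT1, a nuclear long noncoding RNA, was at 46.9 against 78.9 CPM (0.594, 0.530 to 0.663), whereas MALAT1, also nuclear, was 1.19-fold higher.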
